A study of Mus musculus with 3 samples.

Results

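The genes described are 9 genes of the stress response of the endoplasmic reticulum (ER): Xbp1, Hspa5, Hsp90b1, Ern2, Creb3l1, Creb3l4, Pdia4, Sdf2l1 and Dnajc3. They were taken by symbol from the gene list of the counts, which holds 31053 genes, and all 9 were found in each library. Their level is given as unique molecular identifiers (UMIs, each standing for 1 captured transcript) per 10000 UMIs, with all cells of a class added up. The question was how these levels in goblet cells, IgA plasma cells and enteroendocrine cells (EECs), which secrete mucus, antibody and hormones, differ from those in enterocytes, the absorptive cells.

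The study sequenced single cells of the small intestine of C57BL/6N wildtype mice, which were male, 12 weeks old and untreated as far as the labels say. Epithelial cells and intraepithelial immune cells of 3 mice were pooled, sorted as live cells by exclusion of propidium iodide, and loaded as 1 droplet library each per segment (duodenum, jejunum, ileum). The pooling leaves no value for a single mouse, and with 1 library a segment there is no replicate of a segment. Cell classes were therefore compared across the 3 libraries, and segments are given without a test.

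Within the limits of the study on UMIs, genes and mitochondrial share, 16686 of 27235 barcodes were kept. Duodenum, jejunum and ileum gave 4255, 4360 and 8071 of them, which held 57079945, 58186946 and 66148396 UMIs. The ileum library stood apart, with a median of 5536 UMIs and 11.1% mitochondrial UMIs per cell, against 11737 to 12424 UMIs and 27.1 to 27.2% in the others. Pairs of libraries shared 20 to 28 barcodes, of which 4 to 12 were kept. Each class name stands for a cluster with the markers of that type, so that "goblet cells" means goblet-like cells. There were 11671 enterocytes, 749 goblet cells, 169 EECs, 86 IgA plasma cells and 24 Paneth cells, and 431 cells (2.58%) stayed unnamed. All 9 goblet, 12 EEC and 8 plasma cell markers had UMIs in the class of that name in each library. The 9 genes were kept out of the clustering.

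Secreted and membrane proteins are folded in the ER, where chaperones such as BiP (the product of Hspa5) hold unfolded chains. When unfolded protein builds up, the sensors IRE1, PERK and ATF6 start the unfolded protein response: IRE1 splices the mRNA of Xbp1 into a form that codes for an active transcription factor, ATF6 and its relatives are cut free from the membrane, and PERK slows translation. Cells that secrete much protein keep parts of this response on without injury. Plasma cells need Xbp1 to enlarge their ER, and mucus-secreting epithelia carry a second IRE1, encoded by Ern2. The 3′ counts used here cannot tell spliced from unspliced Xbp1 mRNA, and they measure RNA, not activity of a sensor.

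The 9 genes fell into 2 patterns. Xbp1 and the folding genes Hsp90b1, Pdia4, Sdf2l1 and Dnajc3 had their highest level in IgA plasma cells, whereas Ern2, Creb3l1 and Creb3l4 had theirs in goblet cells and were at 0 or 1 UMI in plasma cells. Hspa5 was high in plasma cells and in macrophages/monocytes alike. Together the 9 genes took 0.502% of the UMIs of plasma cells, 0.188% in goblet cells, 0.179% in EECs and 0.066% in enterocytes. Enterocytes had the lowest level of all 11 classes for Hspa5, Hsp90b1, Pdia4 and Sdf2l1. With each cell thinned at random to 800 UMIs, a plasma cell held UMIs of 2.37 of the 9 genes on average, a goblet cell of 1.23, an EEC of 0.98 and an enterocyte of 0.49.

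**Figure D1:**
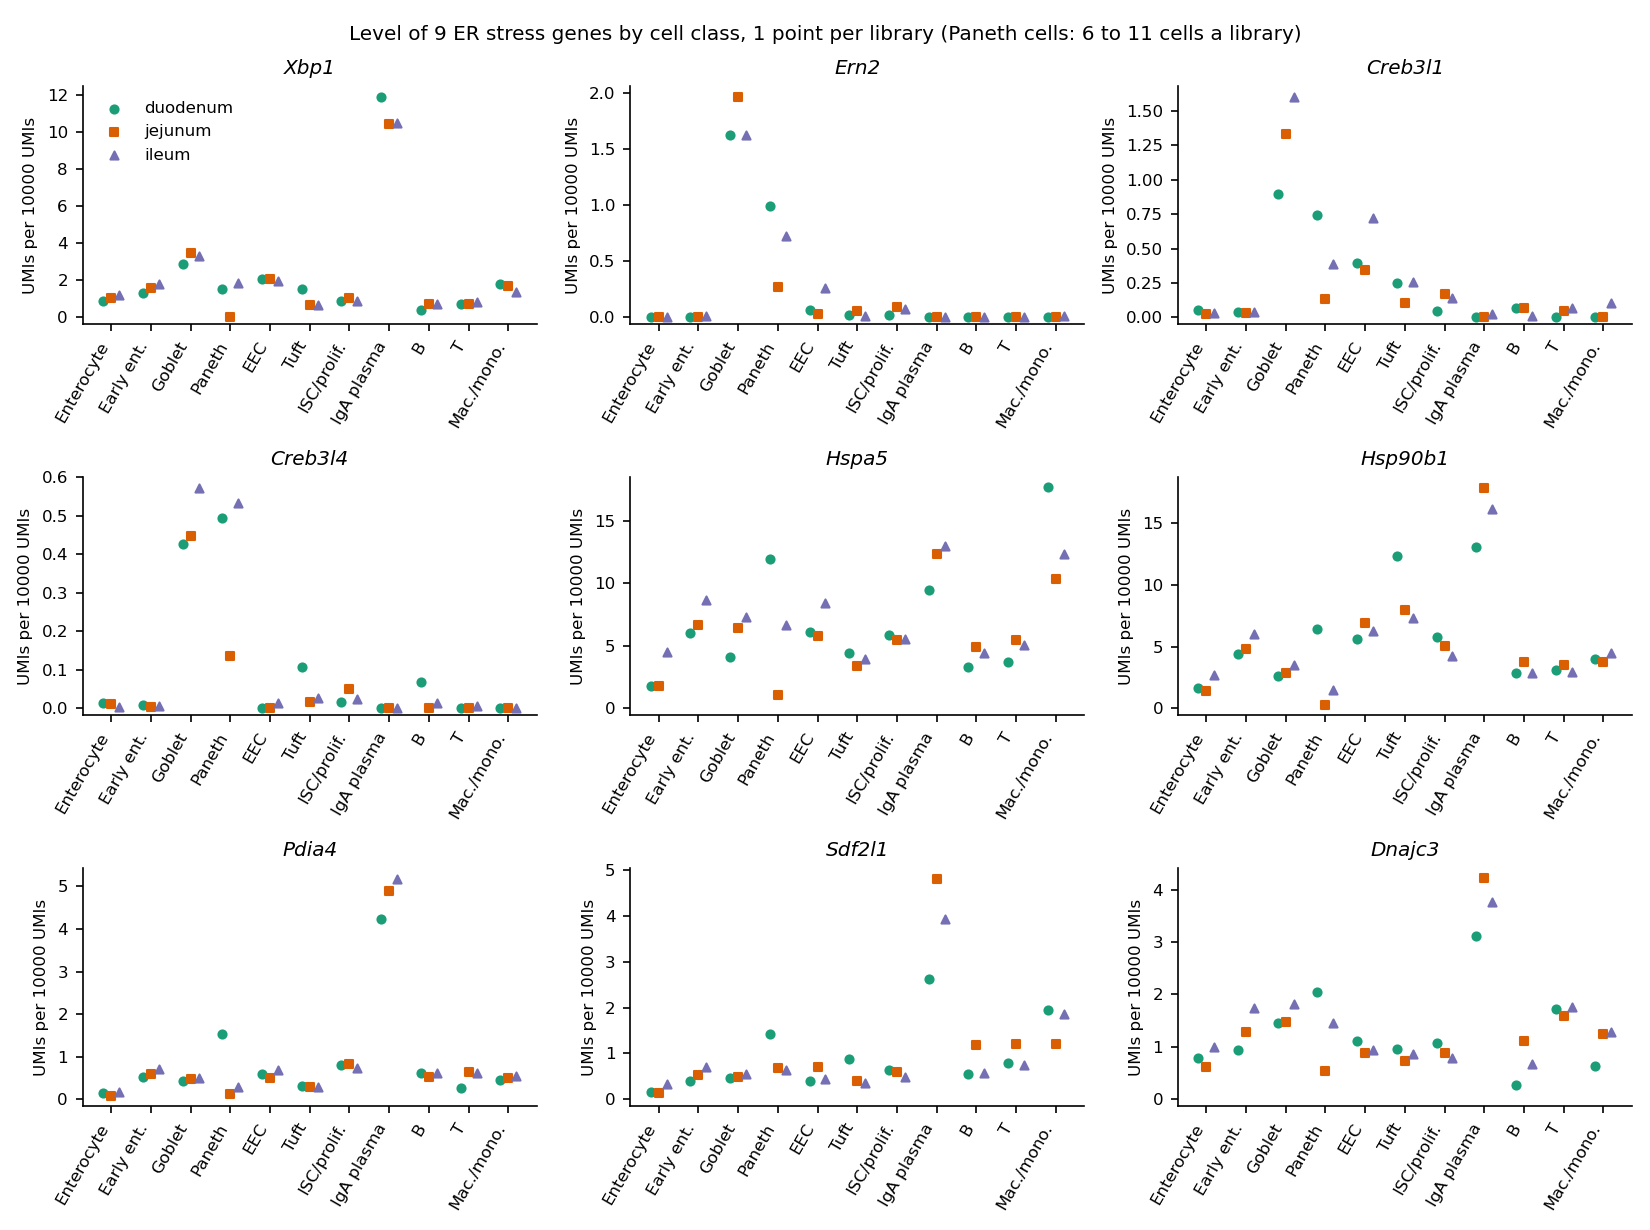
Level of each of the 9 genes in UMIs per 10000 UMIs (linear axis) in each cell class, with 1 point per library. Plasma cells lead for Xbp1, at 10.4 to 11.9, and goblet cells for Ern2, at 1.63 to 1.96, while Hspa5 is spread over all classes.

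Among the transcription factors, Xbp1 (ENSMUSG00000020484, chromosome 11 of GRCm38, 5520659 to 5525893, plus strand) was counted in plasma cells at 11.9 per 10000 UMIs (duodenum), 10.4 (jejunum) and 10.5 (ileum). In goblet cells its level was 2.89, 3.47 and 3.33 in the same order, and in EECs 2.05, 2.04 and 1.97. In enterocytes it was 0.887, 1.05 and 1.19. The 4 classes did not overlap across libraries, and plasma cells, goblet cells and EECs were the first 3 of the 11 classes in this order. Below them the ranges of neighbouring classes overlapped, down to B cells at 0.415 to 0.747.

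Creb3l1 (ENSMUSG00000027230, chromosome 2, 91982328 to 92024502, minus strand) and Creb3l4 (ENSMUSG00000027938, chromosome 3, 90237500 to 90243512, minus strand) encode membrane-bound factors of the ATF6 kind. Creb3l1 stood at 0.894, 1.33 and 1.60 per 10000 UMIs in goblet cells of the duodenum, the jejunum and the ileum. Its level reached 0.393, 0.340 and 0.721 in EECs and 0.052, 0.022 and 0.028 in enterocytes, and the 3 classes were apart. Creb3l4 was counted at 0.426, 0.447 and 0.572 in goblet cells and at 0.004 to 0.014 in enterocytes. Its only neighbour was the Paneth class, at 0.135 to 0.533, and EECs held 1 UMI of it.

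Ern2 (ENSMUSG00000030866, chromosome 7, 122169893 to 122186207, minus strand), the sensor IRE1β of mucous epithelia, was counted almost only in goblet and Paneth cells. Goblet cells held 1.63, 1.96 and 1.63 Ern2 UMIs per 10000 in the 3 segments, and Paneth cells, of which each library had only 6 to 11, held 0.989, 0.270 and 0.726. EECs followed with 0.063, 0.034 and 0.258, on 26 UMIs in all. None of the 86 plasma cells held an Ern2 UMI. By counting error this allows up to 3.49% of such cells with a UMI and a level of up to 0.0175 per 10000, and it sets no limit on the share of plasma cells that express the gene. An Ern2 UMI was found in 81.0% of goblet cells, at a median of 9966 UMIs per cell, in 0.28% of enterocytes, at 9233, and in 0.08% of T cells, which should lack the gene, at 4263. Thinned to 800 UMIs, 17.1% of goblet cells kept one.

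The enterocyte level of Ern2, 0.00347 per 10000 on 43 UMIs, was not above that of T cells, at 0.0065 on 4 UMIs. The part of background RNA in these levels was not tested. Set against Muc2, the gel-forming mucin of goblet cells, Ern2 came to 7.29 UMIs per 1000 Muc2 UMIs in enterocytes (95% Poisson interval 5.28 to 9.83), against 6.95 in goblet cells (6.61 to 7.29). In duodenum, jejunum and ileum this ratio was 16.0, 8.15 and 5.84 in enterocytes and 10.2, 8.12 and 5.63 in goblet cells. The ratio was higher in EECs, at 42.8 (27.9 to 62.7), and likewise in ISC/proliferating cells, at 68.9 (44.6 to 102), and Paneth cells, at 43.6 (30.0 to 61.2). The EEC value rests on the ileum, which held 596 of the 608 Muc2 UMIs and gave 33.6 (20.5 to 51.8), against 625 on 8 Muc2 UMIs in the duodenum and 250 on 4 in the jejunum. The 26 Ern2 UMIs of EECs lay in 16 cells with at most 3 in a cell. Of these cells, 1 had more than 1% mucus UMIs, with a share of 21.3%, and it held 1 of the 26. How many of the Muc2 UMIs of EECs lay in that cell was not taken. Doublets as a part of this value were not tested, because the doublet caller marked 0, 2 and 171 cells in duodenum, jejunum and ileum.

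Of the chaperones, Hspa5 (ENSMUSG00000026864, chromosome 2, 34771970 to 34777547, plus strand) encodes BiP, the main ER chaperone and brake on the 3 sensors. Its level in plasma cells was 9.46, 12.4 and 13.0 per 10000 in the duodenum, the jejunum and the ileum. Goblet cells had 4.10, 6.40 and 7.33, EECs 6.12, 5.82 and 8.40, and enterocytes 1.77, 1.80 and 4.49. Enterocytes of the ileum thus overlapped goblet cells of the duodenum, and no neighbours among the 11 classes in the order of Hspa5 were apart. Macrophages/monocytes, at 10.3 to 17.7, overlapped plasma cells and stood above goblet cells and EECs. Early enterocytes, at 6.00 to 8.67, overlapped goblet cells and EECs and stood below plasma cells.

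Hsp90b1 (ENSMUSG00000020048, chromosome 10, 86690209 to 86705509, minus strand) encodes GRP94, the HSP90 of the ER. It was counted at 13.1, 17.8 and 16.1 per 10000 in plasma cells and at 5.57, 6.91 and 6.26 in EECs. Goblet cells, at 2.64, 2.90 and 3.51, overlapped enterocytes, at 1.66, 1.39 and 2.70. Tuft cells stood second of all classes, at 7.34 to 12.3.

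Pdia4 (ENSMUSG00000025823, chromosome 6, 47796141 to 47813430, minus strand), a disulfide isomerase, stood apart in plasma cells from all other classes, none of which exceeded 1.55. Its plasma cell level was 4.24, 4.89 and 5.18 per 10000, against 0.426, 0.485 and 0.499 in goblet cells, 0.595, 0.511 and 0.683 in EECs and 0.156, 0.074 and 0.184 in enterocytes. Sdf2l1 (ENSMUSG00000022769, chromosome 16, 17130138 to 17132383, minus strand), a BiP-associated ER protein, was at 2.63, 4.81 and 3.93 in plasma cells, 0.471 to 0.545 in goblet cells, 0.405 to 0.715 in EECs and 0.130 to 0.329 in enterocytes. Dnajc3 (ENSMUSG00000022136, chromosome 14, 118937976 to 118981697, plus strand), a co-chaperone of BiP also known to inhibit PERK, was at 3.12, 4.21 and 3.76 in plasma cells and at 1.45, 1.47 and 1.82 in goblet cells. EECs, at 0.885 to 1.11, overlapped enterocytes, at 0.609 to 0.989, for Dnajc3.

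Genes induced by the unfolded protein response are known to carry the ER stress response element (ERSE), which reads CCAAT, then 9 bases of any kind, then CCACG, near their start. In promoter windows of RefSeq (GRCm38.p6, 250 bases before to 50 after a start site, both strands searched) it was found in 3 of the 7 genes that have a window: Hspa5, Hsp90b1 and Dnajc3. Over all genes of the table, 37 of 27025 (0.137%) held it. The sites of these 3 chaperone genes are shown, with the element printed in capitals on the strand that reads CCAAT first.
Hspa5, chr2:34772025-34772043, plus strand: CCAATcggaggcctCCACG
Hsp90b1, chr10:86705638-86705656, minus strand: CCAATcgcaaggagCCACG
Hsp90b1, chr10:86705533-86705551, plus strand, opposite to the gene: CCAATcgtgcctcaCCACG
Dnajc3, chr14:118937827-118937845, plus strand: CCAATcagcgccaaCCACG
Read along the strand of the gene, the first bases of these sites lay 65, 212, 107 and 105 bases before the RefSeq start site. The Hspa5 site lies inside the span given above for that gene, which comes from another annotation with an earlier start. The second form of the element (ATTGG, any base, CCACG) and the letters TGACGTGG of the unfolded protein response element were in none of the 7 windows, and in 0.0444% and 0.714% of all genes. A match describes letters only.

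Goblet cells exceeded enterocytes in all 9 genes. UMIs were summed per class and library and compared with edgeR's quasi-likelihood test, blocked by library, with p-values adjusted by Benjamini and Hochberg's method for 13237 genes. Of these genes 16.4% were higher and 20.8% lower in goblet cells, and the 9 genes had a median log2 fold change of 1.60, against -0.13 for all genes. The fold was 3.04 for Xbp1 (log2 1.60, SE 0.24, adjusted p = 3.4e-06), 3.46 for Pdia4 (1.79, SE 0.22), 2.49 for Sdf2l1 (1.32, SE 0.31), 2.27 for Hspa5 (1.18, SE 0.26) and 1.97 for Dnajc3 (0.98, SE 0.25). Creb3l1 was 35.7-fold higher, Creb3l4 49.9-fold and Ern2 508-fold, the last against an enterocyte level that was not above that of T cells. Hsp90b1 had the smallest change, 1.58-fold (adjusted p = 0.0272 with edgeR). Each gene was higher in 3 of 3 libraries, and 7 of the 9, all but Hspa5 and Hsp90b1, were apart between the classes. The shares of all genes tested for which this held were not taken, so these counts only describe. Without the jejunum library 6 of the 9 passed, with Hspa5, Hsp90b1 and Dnajc3 past the threshold no longer (adjusted p = 0.0623, 0.257 and 0.0693 in edgeR), and Hsp90b1 also failed without the duodenum (0.0952). The Hsp90b1 call was lost under 5 further alternatives, with log2 fold changes of 0.28 (cells thinned to 800 UMIs) to 0.73 (cells named by marker UMIs), and Dnajc3 was not called with thinned cells (0.66, adjusted p = 0.0893 in edgeR). In the same fit early enterocytes were also called higher than enterocytes for Hspa5 (log2 1.15), Hsp90b1 (1.10), Pdia4 (1.88) and Sdf2l1 (1.12). Xbp1, Ern2, Creb3l1, Creb3l4 and Dnajc3 had no call in early enterocytes. By level, goblet cells ranked 7, 9 and 8 among the 11 classes for Hsp90b1, Pdia4 and Sdf2l1, so these differences are not particular to goblet cells.

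IgA plasma cells exceeded enterocytes by more, in 6 of the 9 genes. Here 19.5% of all genes tested were higher and 26.6% lower. Pdia4 was 58.2-fold higher (log2 5.86, SE 0.26), Sdf2l1 31.1-fold (4.96, SE 0.36), Xbp1 17.0-fold (4.09, SE 0.26), Hsp90b1 13.6-fold (3.77, SE 0.26), Dnajc3 7.68-fold (2.94, SE 0.27) and Hspa5 7.45-fold (2.90, SE 0.27), with adjusted p of at most 1.1e-09 in edgeR. For these 6 genes the classes were apart in all 3 libraries, and leaving out any library kept 6 calls. The share of all genes tested that were apart was not taken here either. Ern2 and Creb3l4 had 0 UMIs in plasma cells and levels under the limit of detection of that class in enterocytes, so no fold is given. Creb3l1 had 1 UMI in plasma cells, and the level in enterocytes was 5.84 times higher with a 95% counting interval from 1.04 to 231.

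B cells, the precursors of plasma cells, gave the comparison within the lineage. The same 6 genes were higher in plasma cells than in B cells, where 8.15% of all genes tested were higher and 7.18% lower. Xbp1 differed most, at 48.4-fold (log2 5.60, SE 0.30), with a B cell level of 0.415, 0.718 and 0.747 per 10000 in the 3 segments. Pdia4 followed at 24.5-fold, Dnajc3 at 16.7-fold, Sdf2l1 at 16.3-fold, Hsp90b1 at 15.4-fold and Hspa5 at 8.57-fold. B cells held 1 UMI of Ern2, 6 of Creb3l1 and 5 of Creb3l4.

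Plasma cells were also set against goblet cells. The 2 patterns were named from these same levels, so this gives the size of the split and no further support for it. The 6 genes above were higher in plasma cells, from 3.28-fold for Hspa5 and 3.89-fold for Dnajc3 to 16.8-fold for Pdia4 (log2 4.07, SE 0.24), with 5.61-fold for Xbp1 (2.49, SE 0.25). The other 3 were higher in goblet cells: Ern2 at least 96.7-fold and Creb3l4 at least 29.0-fold, both with 3 UMIs over the class as the floor, and Creb3l1 with a ratio of 231 (95% counting interval 41.4 to 9143) on 1 UMI in plasma cells. Across all genes tested 16.0% were higher and 17.7% lower in plasma cells. These calls did not change when any library was left out.

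EECs had higher levels than enterocytes for Xbp1, Hspa5, Hsp90b1, Pdia4 and Sdf2l1 in each library, but the test called only part of this. Of the 9 genes, 4 passed, with 26.8% of all genes tested higher and 26.1% lower: Hsp90b1 at 1.88-fold (log2 0.91, SE 0.24), Pdia4 at 2.54-fold (1.34, SE 0.24), Creb3l1 at 7.84-fold (2.97, SE 0.39) and Ern2 at 19.7-fold (4.30, SE 0.61). Xbp1 had a log2 fold change of 0.13 (SE 0.24, adjusted p = 0.694 in edgeR), Hspa5 of 0.58 (SE 0.26, adjusted p = 0.0567, past the threshold under 5 other choices of cells or clusters), Sdf2l1 of 0.51 (SE 0.35, adjusted p = 0.234) and Dnajc3 of -0.49 (SE 0.27, adjusted p = 0.136). Creb3l4, at 1 UMI, gives no fold. Without the jejunum library, which held 24 EECs, Hsp90b1 was not called either (adjusted p = 0.125 in edgeR). Without the duodenum the value of Xbp1 was -0.13 and Dnajc3 was called lower at -0.75, and without the ileum Hspa5 and Sdf2l1 were called higher.

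The number called in EECs depended on the scaling. With TMM the median log2 fold change of all genes lay near 0 in this comparison, at -0.06. It was -0.56 in plasma cells and -0.75 in Paneth cells against enterocytes. With plain UMI totals the median of all genes was 0.75 in EECs, and 7 of the 9 genes passed, Xbp1 at 0.96 and Hspa5 at 1.39 included. Totals free of mucus, immunoglobulin and hormone genes moved it to 1.05 and 8 of 9 passed, whereas with cells thinned to 800 UMIs 2 were higher and Dnajc3 was called lower, at -2.20 (adjusted p = 0.0024 in edgeR), while Pdia4 stood at 0.13. Dnajc3 turned positive under 4 of the 5 scalings of whole cells other than TMM (plain totals, DESeq2 and 3 sets of reduced totals). Counted from the median of all genes, Hsp90b1 stood at 0.97 in the main scaling and at 0.75 to 1.00 in the others, Hspa5 at 0.64 (0.42 to 0.68), and Xbp1 at 0.19 (-0.01 to 0.23). The share of called genes that were higher was 50.6% and 62.6 to 84.8% under the 5 others.

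The other comparisons moved too, without a change in direction for a gene called. The share of called genes that were higher was 44.0% for goblet cells against enterocytes (30.6 to 80.4% under the others), 42.3% for plasma cells against enterocytes (20.5 to 62.5%), 47.6% for plasma against goblet cells (21.5 to 56.4%) and 53.2% for plasma against B cells (3.69 to 52.7%). From the median of all genes, Xbp1 stood at 1.73 in goblet cells (1.64 to 1.77 over the other scalings) and at 4.65 in plasma cells (4.09 to 4.74), and Pdia4 at 6.42 in plasma cells (5.86 to 6.48). Products took 38.3% of UMIs in goblet cells as mucus, 60.9% in plasma cells as immunoglobulin and 17.9% in EECs as hormones, and the median mitochondrial share was 23.0% in enterocytes against 2.81 to 7.03% in these classes. Per 10000 UMIs of other genes, Xbp1 stood at 1.04 in enterocytes, 2.47 in EECs, 5.24 in goblet cells and 28.1 in plasma cells. The part of RNA quality in the differences was not tested.

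Goblet cells and EECs differed in the mucous genes and in Xbp1. Of the 9 genes, 5 were higher in goblet cells, where 15.8% of all genes tested were higher and 18.5% lower: Ern2 at 25.7-fold (log2 4.69, SE 0.46), Creb3l1 at 4.56-fold (2.19, SE 0.37), Xbp1 at 2.77-fold (1.47, SE 0.25), Dnajc3 at 2.76-fold (1.47, SE 0.28), and Creb3l4 with a ratio of 94.3 (95% counting interval 16.9 to 3734) on 1 UMI in EECs. Hspa5 at 0.60, Pdia4 at 0.44 and Sdf2l1 at 0.80 on the log2 scale did not pass, and all 3 turned negative with plain UMI totals. Hsp90b1, at -0.26, did not pass but was called lower in goblet cells under 4 of 5 other scalings, for example at -1.06 with plain totals. The share of called genes that were higher was 46.1% here and 11.4 to 38.4% under the others.

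Paneth cells, which secrete antimicrobial protein, had all 9 genes higher than enterocytes in a fit of sums of at least 5 cells, where 9.84% of 11012 genes were higher and 17.6% lower. Ern2 (log2 8.33, SE 0.64), Creb3l4 (6.16, SE 0.63), Creb3l1 (4.39, SE 0.60), Pdia4 (3.03, SE 0.39), Sdf2l1 (2.91, SE 0.43), Hspa5 (2.00, SE 0.36) and Dnajc3 (1.56, SE 0.31) were called also with plain totals. Xbp1 (0.99, SE 0.37, adjusted p = 0.0472) and Hsp90b1 (1.12, SE 0.38) were not called with plain totals, and the 6 jejunal cells, at a median of 1526 UMIs, held no Xbp1 UMI. Without the duodenum or without the ileum Xbp1 was not called (0.92 and 0.49), nor was Hsp90b1 without the jejunum (1.11). Hsp90b1 was higher in 1 of 3 libraries and at -0.10 without the duodenum, and Xbp1, Hspa5 and Dnajc3 were higher in 2 of 3. The share of called genes that were higher was 35.9%, and 17.8% with plain totals.

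**Figure D2:**
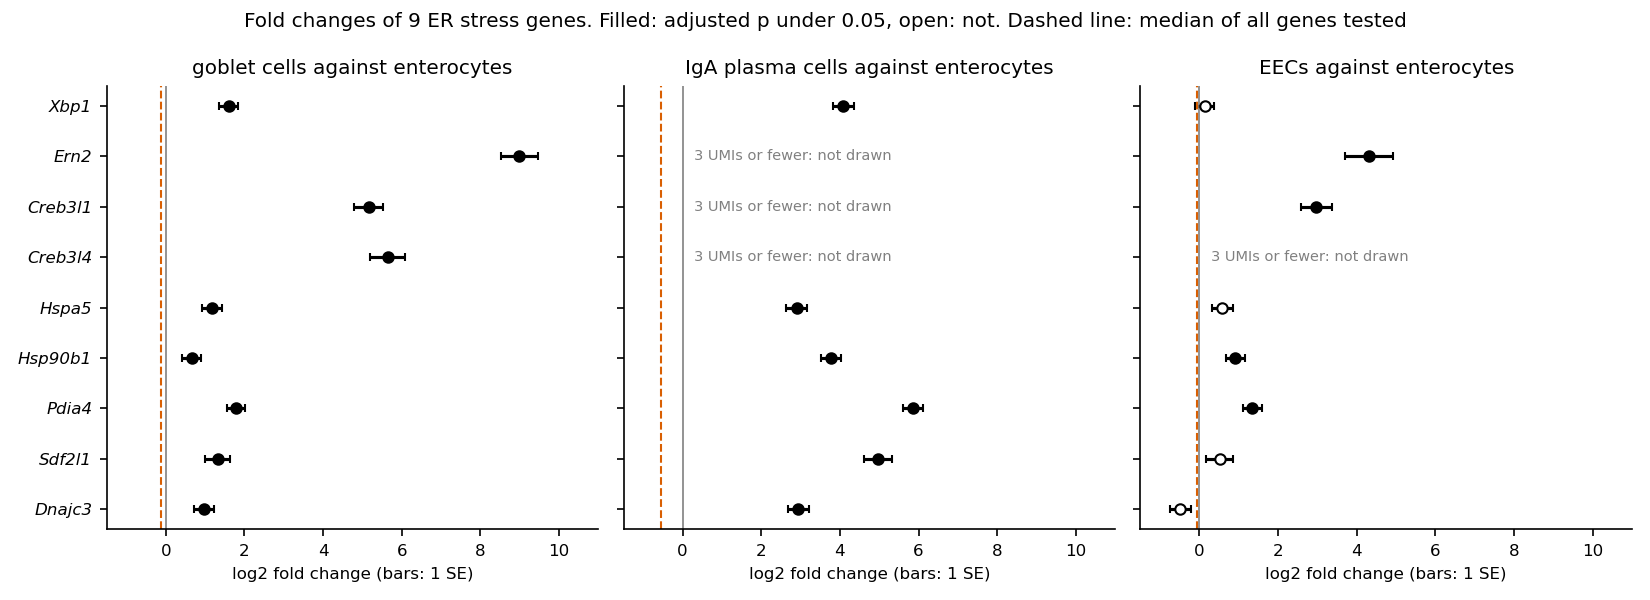
Log2 fold changes of the 9 genes in the 3 comparisons with enterocytes, with bars of 1 SE (edgeR), filled where the adjusted p was under 0.05, and the median of all genes as a dashed line. All 9 points are filled and right of the line for goblet cells against enterocytes, 6 for plasma cells against enterocytes, and 4 for EECs against enterocytes.

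Other genes of ER function were taken from lists by function. Their counts are to be read against the share of all genes tested, of which 16.4% were higher and 20.8% lower in goblet cells than in enterocytes, 19.5% and 26.6% in plasma cells, and 26.8% and 26.1% in EECs. Of 25 genes of translocation into the ER and glycosylation, 23 were higher in goblet cells, 24 in plasma cells and 14 in EECs than in enterocytes (92.0%, 96.0% and 56.0%), with medians of 1.35, 2.07 and 0.74 on the log2 scale. In goblet cells these were led by the signal peptidase gene Sec11c (2.90), Ssr4 of the translocon-associated complex (2.18) and Ddost of the oligosaccharyltransferase (2.12). In plasma cells Sec11c (5.95), Ssr4 (5.11), Spcs3 (4.37) and Spcs1 (4.24), and in EECs Sec61b of the translocon (1.43), Ssr2 (1.35), Spcs1 (1.34) and Ssr4 (1.33) were first.

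Of 23 further chaperones and folding enzymes, 18 were higher and 2 lower in goblet cells, 17 and 1 in plasma cells, and 11 and 2 in EECs. The shares higher were 78.3%, 73.9% and 47.8%, against 16.4%, 19.5% and 26.8% of all genes tested. Agr2, a disulfide isomerase needed for mucin, was higher in goblet cells (9.02) and in EECs (6.20), and stood at -0.18 with no call in plasma cells. Txndc5 (6.04), Fkbp11 (4.95) and Pdia5 (3.87) came next in goblet cells. In plasma cells Mzb1, a chaperone of immunoglobulin assembly, had the largest value (12.86), before Fkbp11 (7.88), Txndc5 (7.72) and Pdia6 (5.52). In EECs Fkbp11 (2.79), Pdia6 (2.53) and Pdia5 (2.51) followed Agr2, and Fkbp11 was not called without the duodenum (1.85). The value of Agr2 in plasma cells turned positive under 3 of 5 other scalings.

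ER-associated degradation returns misfolded protein to the cytosol. Of its 12 genes, 9 were higher (75.0%, against 19.5% of all genes tested) and 0 lower in plasma cells, with Derl3 (11.59), Edem2 (4.91), Herpud1 (3.91) and Edem1 (3.17) in front. In goblet cells 3 were higher (25%, against 16.4%), Edem3 (1.79), Edem2 (1.02) and Herpud1 (0.85), and 0 lower, with Herpud1 not called without the ileum (0.76). In EECs 0 were higher and 7 lower (58.3%, against 26.1% of all genes), Edem1 (-3.05) among them under all scalings, whereas under the 5 other scalings 1 to 4 of the 12 were higher and 1 to 4 lower, so that this direction rests on the scaling. A difference between the classes in this list was not tested. Syvn1 (-1.34), Edem3 (-1.07) and Derl1 (-1.05) were each called lower under at most 2 of the 5 others, and Syvn1 was not called without the ileum (-0.60).

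Of 15 genes of the integrated stress response, which ATF4 drives, 9 were higher and 1 lower in goblet cells, 7 and 1 in plasma cells, and 5 and 2 in EECs. The shares higher were 60%, 46.7% and 33.3%, against 16.4%, 19.5% and 26.8% of all genes tested, so that the count in EECs was near that of all genes. Asns, asparagine synthetase, was higher in all 3 (4.59, 4.97 and 3.66). Nupr1 (7.32), Vldlr (6.28) and Slc7a11 (5.67) in goblet cells and Nupr1 (6.13), Vldlr (5.67) and Psat1 (5.27) in EECs were the largest. In plasma cells Phgdh (9.74), Chac1 (6.03) and Psat1 (5.56) led. Atf4 itself was higher in goblet cells (0.86) and was not called in plasma cells (0.38) or EECs (-0.24). Ddit3, which encodes the death-related factor CHOP, was called in none of the 3 (0.33, -0.69 and -0.31). Without the duodenum Ddit3 was called lower in plasma cells (-0.85) and EECs (-0.97), and Nupr1 in EECs was not called (2.00). Atf4 in goblet cells was not called without the jejunum (0.85). The values of Atf4 and Ddit3 in EECs were above 0 under all 5 other scalings, and that of Atf4 in plasma cells was below 0 under 2.

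Of 9 sensors and membrane-bound factors, 2 were higher and 2 lower in goblet cells, 3 and 1 in plasma cells, and 2 and 4 in EECs, and plain totals turned the plasma cell count to 2 and 4. The shares, 22.2% higher and 22.2% lower in goblet cells (16.4% and 20.8% of all genes tested) and 22.2% higher in EECs (26.8%), were near those of all genes. The share lower in EECs was 44.4%, against 26.1% of all genes. In plasma cells 33.3% were higher and 11.1% lower, against 19.5% and 26.6%. Eif2ak3, which encodes PERK, was higher in goblet cells (0.95), at 0.25 with no call in plasma cells, and lower in EECs (-1.17), the last under TMM scaling only. Ern1, the IRE1 found in all cells, was at 0.71, 1.19 and 0.94 in goblet cells, plasma cells and EECs, and each call was lost without the jejunum library and without the ileum library. Atf6 was called in plasma cells only (1.77), with Atf6b (2.01), and stood at 0.34 and 0.41 in goblet cells and EECs. Creb3l3, a factor of liver and intestine, was lower in all 3 classes (-3.48, -2.90 and -3.45), as was Creb3l2 in goblet cells (-0.99, not called without the jejunum, -0.57) and EECs (-1.70). Eif2ak3 in plasma cells fell below 0 under 2 other scalings, and in EECs it was not called without the jejunum or without the ileum.

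Chaperones of the cytosol were listed beside those of the ER. Of 12 heat shock genes, 1 was higher and 2 lower in goblet cells (8.33% and 16.7%, below the 16.4% and 20.8% of all genes tested). In plasma cells 10 were higher (83.3%, against 19.5%) and in EECs 6 (50.0%, against 26.8%), with 1 lower in each. Hspa1a (4.42), Hsph1 (4.17), Hspb1 (3.93) and Hspa1b (3.66) led in plasma cells, and Hspb1 (6.93), Hsph1 (3.07), Hsp90ab1 (2.40) and Hsp90aa1 (1.89) in EECs. In goblet cells Hsp90ab1 was higher (0.62) and Hspa8 (-0.82) and Dnaja1 (-0.63) lower. Dnaja1 turned positive under 1 other scaling, each of these 3 calls was lost without the duodenum and without the jejunum, and Hspb1 in plasma cells was not called without the duodenum.

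**Figure D3:**
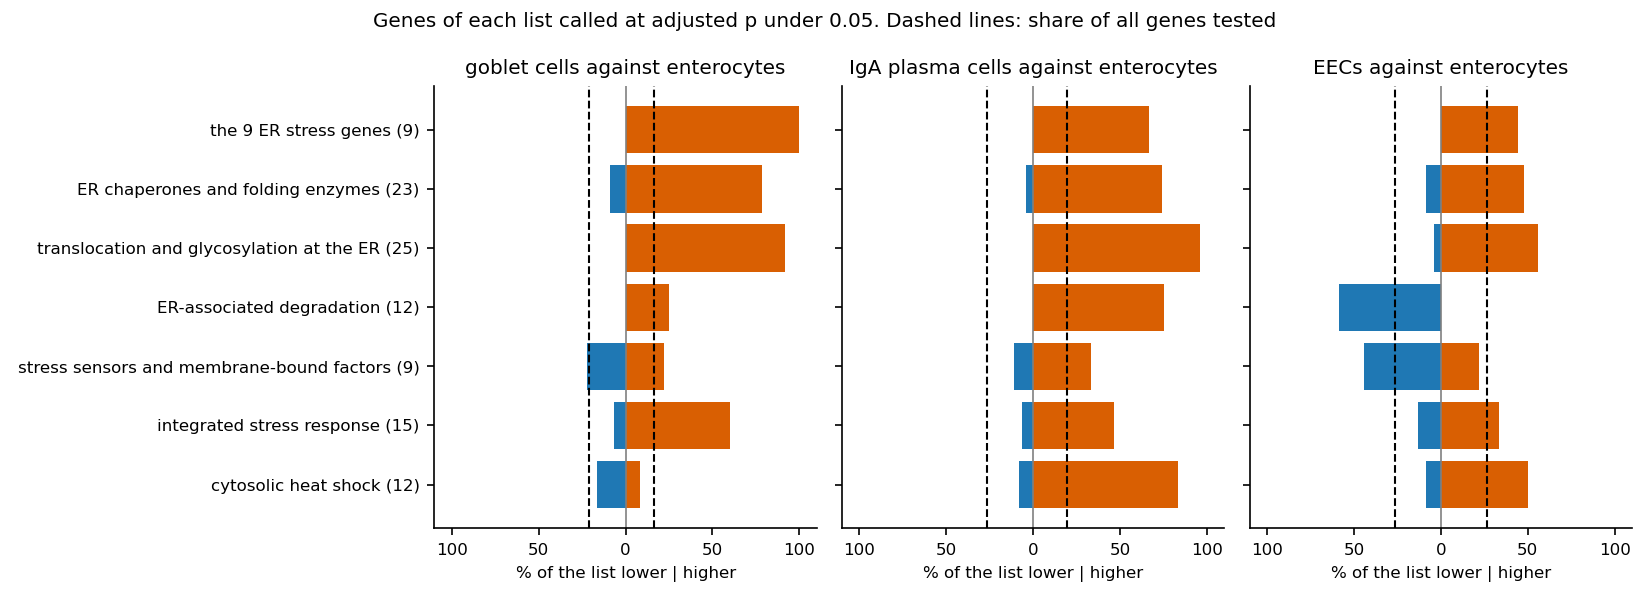
Share of the genes of each list (number of genes in brackets) called higher (orange) or lower (blue) than in enterocytes in goblet cells, plasma cells and EECs, with the share of all genes tested as dashed lines. Translocation and glycosylation, at 23, 24 and 14 of 25 genes higher, lies above the line in all 3 classes.

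Across the 31 sums of class and library, the genes most like Xbp1 were Edem2 (Pearson r = 0.884 of log2 levels), H13 (0.849) and Txndc5 (0.846). Sec61b (0.894), Sdf2l1 (0.779) and Pdia6 (0.779) were most like Hspa5, and Atoh1 (0.973), Chrm1 (0.971) and Capn8 (0.955) most like Ern2. The sums share libraries and depth, so these values are descriptions.

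Within a class the libraries could be compared only without a replicate. Of 32 levels of the genes in the 4 classes, 27 were higher in the ileum than in the duodenum. The same share over all genes was not taken, so this count is not a result about these genes. Hspa5 in enterocytes had a log2 ratio of ileum over duodenum of 1.34 (95% counting interval 1.30 to 1.38), Sdf2l1 of 1.13 and Hsp90b1 of 0.70. In goblet cells Hspa5 (0.84, 0.74 to 0.93) and Creb3l1 (0.84, 0.63 to 1.05) had the largest ratios and Ern2 (0.00, -0.16 to 0.17) the smallest. In plasma cells Sdf2l1 (0.58) was higher and Xbp1 (-0.18) lower in the ileum. In EECs Ern2 (2.02, 0.61 to 3.44) and Creb3l1 (0.88, 0.24 to 1.51) had the largest ratios, before Hspa5 at 0.46. The Ern2 ratio rests on 5 UMIs in the duodenum and 20 in the ileum. Creb3l1 (-0.89) and Creb3l4 (-1.75) in enterocytes were lower in the ileum. Mitochondrial share, depth and segment moved together: enterocytes had a median mitochondrial share of 29.0% (duodenum), 29.3% (jejunum) and 12.7% (ileum). With cells of at most 20% mitochondrial UMIs, Hspa5 in enterocytes was at 2.04, 2.03 and 4.14 per 10000, a log2 ratio of 1.02. Under the same limit the enterocyte ratio of Sdf2l1 was 0.51 (0.27 to 0.74) and that of Hsp90b1 0.56, and that of Xbp1 went from 0.42 to 0.086 with an interval that spans 0 (-0.023 to 0.20). Library and segment cannot be told apart.

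**Figure D4:**
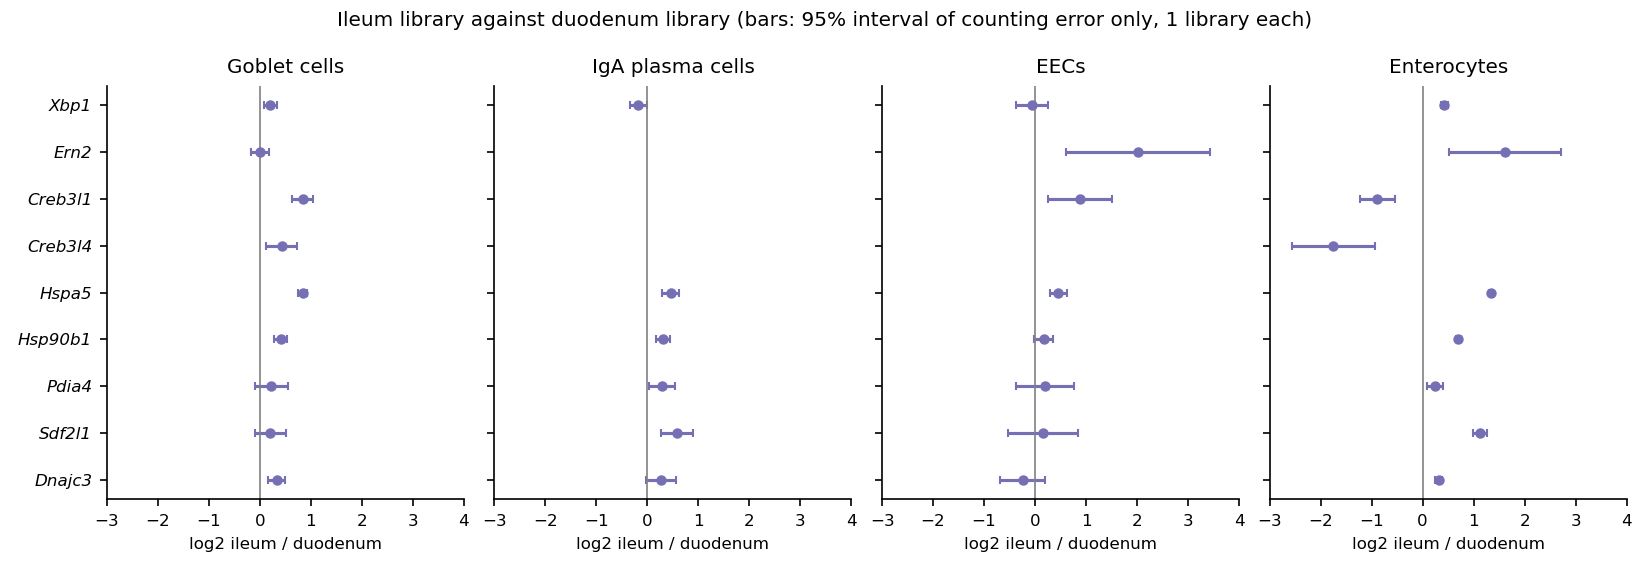
Log2 ratio of the level in the ileum library over that in the duodenum library for each gene in 4 classes, with 95% intervals of counting error only. Most points lie right of 0, with Hspa5 in enterocytes at 1.34, and Ern2 in goblet cells lies at 0.00.

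Goblet cells were not uniform. A finer clustering (resolution 1.5) split them into 444 cells led by Zg16, Tff3, Clca1 and Spink4, with a median of 16645.5 UMIs, and 305 cells led by Fcgbp, Muc2 and Sytl2, with 3473. Xbp1 was at 3.42 and 2.34 per 10000 in these groups, Hspa5 at 6.51 and 5.01, Pdia4 at 0.54 and 0.17, Sdf2l1 at 0.58 and 0.16, and Creb3l4 at 0.58 and 0.17. Ern2 went the other way, at 1.54 and 2.45. The median mitochondrial share was 3.67% and 8.54%, and its part and that of depth in these values were not tested.

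EECs were divided by the thresholds of the study on the RNA of Cck (I cells), Sst (D), Gcg (L), Gip (K), Tph1 (EC) and Nts (N). Hsp90b1 was highest in the 21 K cells, at 10.2 per 10000 (95% Poisson interval 9.16 to 11.4), or 6.10 (duodenum), 8.43 (jejunum) and 18.7 (ileum), against 4.54 to 7.22 in the other 5 subtypes. Pdia4 was at 0.939 in K cells and at 0.337 to 0.614 in the others. Of the 26 Ern2 UMIs, 20 lay in the 45 EC cells (0.534 per 10000, 0.326 to 0.824) and 6 in the 59 N cells (0.119, 0.044 to 0.259), and none in the other subtypes or in the 15 cells past no threshold. Xbp1 was at 1.11 to 2.56 and Hspa5 at 5.22 to 8.14 over the 6 subtypes. Most sums per library held under 10 cells, so no subtype was tested.

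**Figure D5:**
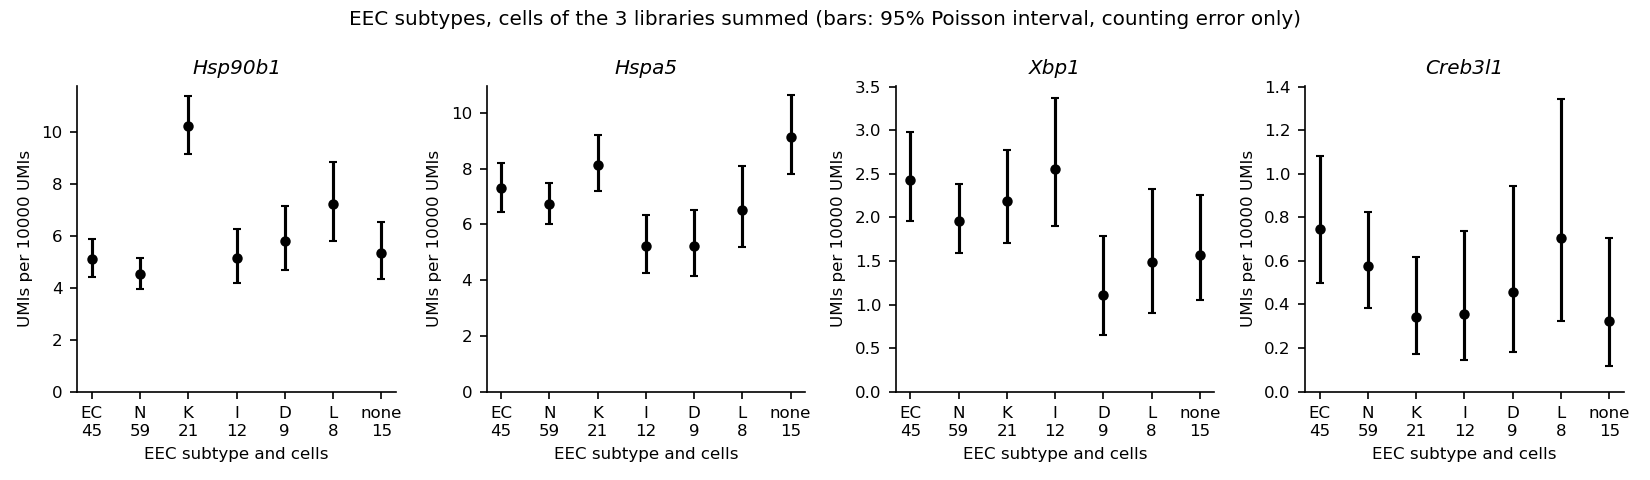
Level of Hsp90b1, Hspa5, Xbp1 and Creb3l1 per 10000 UMIs in the EEC subtypes, cells of the 3 libraries summed, with 95% Poisson intervals that cover counting error only. K cells stand above the other subtypes for Hsp90b1, at 10.2.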

How the data were processed

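Single cells of 3 segments of the small intestine were measured with the 10x 3′ v3 kit, 1 library per segment from pooled cells of 3 mice. The authors counted UMIs with Cell Ranger 3.0.2 (builds GRCm38 and mm10 in the submitters' processing notes), and the deposited values are raw counts of the barcodes called as cells, with no normalization. The annotation used for counting is not given in the sources used here. Of the 31053 gene identifiers, 31011 (99.9%) were matched to the reference annotation for positions.

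The limits of the study were used on cells, which needed 800 to 50000 UMIs, 200 to 6000 genes and a mitochondrial share of 40% or less. They were clustered in Seurat 5.3.0 (R 4.3.3) by anchors over 2000 variable genes, without the 9 genes and every gene of the pathway lists, on 30 principal components at a resolution of 0.8 (23 clusters). Clusters were named by marker lists where at least 3 markers were found in 10% of cells and their leading 10 genes did not go against the name. Mixed clusters were clustered again at 0.5. An enterocyte cluster of 1317 cells was led by pancreatic enzyme genes and was kept. Scrublet (scanpy 1.11.5) called too few cells to work in 2 libraries, and its calls were removed only in an alternative.

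Levels are summed UMIs per 10000 UMIs with exact 95% Poisson intervals, and shares have exact binomial intervals. Both cover counting error only, and 3 UMIs over a class were the floor. Sums per class and library of at least 10 cells (31 sums; at least 5 cells for Paneth cells) were fitted together in edgeR 4.0.16 by the quasi-likelihood test (genes kept by filterByExpr, TMM scaling, a block for the library, calls at a Benjamini-Hochberg adjusted p under 0.05 over all genes tested). Cells were not replicates. The p-values rest on the spread left after class and library, over all sums of the fit and not only the 2 classes compared. With 1 library of pooled cells a segment, this spread may be technical or lie between segments, which cannot be told apart. A gene with 3 UMIs or fewer in a class has no fitted fold here. Python 3.11.15, numpy 2.4.6, scipy 1.17.1 and pandas 2.3.3 gave levels and figures. The fit was tested on simulated data.

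The 9 genes and all lists were chosen with earlier results of these data known. Other genes named are, per list and comparison with enterocytes, up to 4 with the largest absolute log2 fold change among those called, always Ern1, Eif2ak3, Atf6, Atf4, Ddit3 and Agr2, and the 3 genes most correlated (log2 of UMIs per 10000 plus 0.1) with Xbp1, Hspa5 and Ern2. Muc2 and the genes that lead the goblet clusters were named after their values were seen. Promoter windows came from RefSeq (GRCm38.p6). Alternatives were plain totals (no TMM), DESeq2 1.42.0, totals without genes over 1% of a class, no gene filter, only the 2 classes compared, no library block, sums of at least 5 cells, at most 20% mitochondrial UMIs, cells thinned to 800 UMIs, cells richest in enterocyte markers removed (10%), doublets removed, no integration, resolution 1.5, cells named by marker UMIs, and each library left out. Totals without product genes, totals without mitochondrial genes and enterocytes without the pancreatic enzyme cluster were chosen after seeing the data.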

Additional observations from a re-analysis of the deposited data

How the results depend on the processing

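Of 973 values of the 9 genes under the alternatives, 913 kept their direction and their side of the threshold, 18 lost the call, 30 gained one and 12 changed direction. In EECs against enterocytes the number of genes higher was 4, and 7 with no TMM, with DESeq2, with totals without genes over 1% and with totals without mitochondrial genes, 8 with totals without product genes and 2, with Dnajc3 lower at -2.20, with cells thinned to 800 UMIs. Which of these scalings is right was not tested. The number was 5, through Hspa5, with at most 20% mitochondrial UMIs (0.74, adjusted p = 0.0148 in edgeR), without the cells richest in enterocyte markers (0.63, 0.0422), with clusters made without integration (0.63, 0.0479), at resolution 1.5 (0.66, 0.0343) and without the enterocyte cluster led by pancreatic enzyme genes (0.66, 0.0296). In goblet cells against enterocytes Hsp90b1 lost its call with totals without mitochondrial genes (0.41, adjusted p = 0.138 in edgeR), with no filter on low genes (0.67, 0.0650), with sums of at least 5 cells (0.72, 0.0953), with thinned cells (0.28, 0.568) and with cells named by marker UMIs (0.73, 0.102), and Dnajc3 with thinned cells (0.66, 0.0893). In goblet cells against EECs Hspa5 was called without the duodenum (0.88) and Sdf2l1 with only the 2 classes in the fit (0.74). When 1 library was left out, the number was 3 to 6 in EECs, 6 to 9 in goblet cells against enterocytes, 5 to 6 in goblet cells against EECs, 7 to 8 in Paneth cells, and 6 in each comparison of plasma cells. Values that changed direction were, in EECs against enterocytes, Xbp1 (0.13; -0.13 to 0.45 with 1 library left out) and Dnajc3 (-0.49; 0.33 with no TMM, 0.18 without genes over 1%, 0.63 without product genes and 0.082 without mitochondrial genes). In goblet cells against EECs they were Hspa5 (0.60), Pdia4 (0.44) and Sdf2l1 (0.80), at -0.20, -0.36 and -0.0017 with no TMM and at -0.22, -0.38 and -0.019 without mitochondrial genes. None of these had a call with TMM scaling and all libraries, and Dnajc3 was called higher without product genes. Hsp90b1 in Paneth cells (1.12) was called and ranged from -0.10 (without the duodenum) to 1.75 with 1 library left out. The fit without the library as a replicate block left the number of the 9 genes called the same in each comparison it was run for. The Paneth fit was not run under most alternatives. With thinned cells Creb3l4 could not be fitted. The 86 plasma cells and 24 Paneth cells limit what low counts of Ern2, Creb3l1 and Creb3l4 show, and 1 library a segment leaves segments untested.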
